A study of Mus musculus with 31 samples.

Results

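The genes described here are 46 complement and coagulation factors, named by their symbols and not by their values in these livers, though with earlier results of these data known. The array names 45 of them, 22 complement and 23 coagulation genes, among 23968 gene names tested. C1s has no probe of that name; the array carries it as C1s1, a symbol for which RefSeq lists C1s as a synonym, and C1s1 was not counted as a member. Livers came from 31 male C57BL6/J mice, 1 array each: 8 ChREBPβ-deficient mice, in which CRISPR/Cas9 editing of embryos had removed exon 1b of Mlxipl, 8 WT littermates of these, 7 mice of the total ChREBP-KO genotype, which are Mlxipl-null and lack both the α and the β isoform, and 8 WT littermates of that line. Every mouse on these arrays had gone without food for 24 hours and then had food and water with 20% glucose for 18 hours, so the comparisons describe the refed liver only, and age was not stated for these animals. Neither deletion was restricted to the liver. The arrays measure mRNA in whole liver, not plasma protein, and fewer cells of a type cannot be told apart from less RNA per cell.

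Complement is a cascade of plasma proteases and binding proteins that marks and lyses microbes. C1q or mannose-binding lectin starts it, both routes and the alternative pathway converge on C3, and the terminal components build the membrane attack complex. Coagulation starts when tissue factor meets factor VII or by contact activation, runs through factors X and V to thrombin, and ends in a fibrin clot that plasmin later dissolves. Hepatocytes secrete most of these proteins. C1q comes mainly from macrophages and factor VIII mainly from endothelial cells. ChREBP, the product of Mlxipl, is a glucose-responsive transcription factor known for its control of glycolytic and lipogenic genes.

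Levels are given as log2 signal, the base 2 logarithm of a spot's median intensity after quantile normalization, and differences are differences of such values. They describe 1 probe per gene, the brightest, and no probe's level was set against another's. A gene was called when limma's Benjamini-Hochberg adjusted p over all probes was under 0.05, and intervals are 95% confidence intervals.

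The brightest Mlxipl probe was lower in total ChREBP-KO mice than in WT littermates by 1.16 on the log2 scale (written as a difference, -1.16, limma adjusted p 8.05e-13), and all 18 genes of a ChREBP target list that includes Mlxipl were called lower. Like the other lists, that list was chosen with earlier results of these data known. In ChREBPβ-deficient mice that probe differed by -0.45 (limma adjusted p 0.0152). The other Mlxipl probes differed by -0.59 (limma adjusted p 0.00313) and -0.05 (limma adjusted p 0.603) in total ChREBP-KO mice, the latter one assigned to the same transcript as the brightest, and where the probes lie relative to the deletions was not assessed. Of 12 hepatocyte markers, 4 were called higher and 0 lower. Pancreatic RNA was present in 3 WT mice of the total ChREBP-KO line, where the mean of Cela2a, Cela3b, Ctrb1 and Clps lay 2.46, 2.61 and 4.23 above the median array. Counts are also given without these 3 mice. Arrays were scanned on 2 days, with mice of every group on both, so values within each day are given for the strongest calls. No member was saturated on any array, and 43 to 45 of the 45 members passed the spot filter on each array.

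Among the members, more coagulation than complement genes were called in total ChREBP-KO livers. Of 23 coagulation genes, 4 were called higher and 8 lower, while of 22 complement genes 1 was called higher and 4 lower. Over all genes tested, 14.4% were called higher and 14.8% lower. The median difference was -0.12 for coagulation, -0.09 for complement and 0.01 over all genes. On the brightest probes the sizes were small: the members ran from -0.63 to 0.63, a fold change of at most 1.55. Some other probes, such as the second probes of C4bp and Fga, differed by more, as given below. Without the 3 mice with pancreatic RNA, 4 coagulation genes were called lower and 0 complement genes higher. The share of all genes called without these mice is not given here. Of the 17 members called with all mice kept, Pros1, F11 and Cpb2 were also called within each scan day alone. C2, C6, F3, F9, F13b and Fga were called within neither. The shift of a class by mouse overlapped between the genotypes, at -0.23 to 0.02 in total ChREBP-KO mice and -0.12 to 0.13 in WT littermates for the coagulation mean, and at -0.16 to 0.03 and -0.21 to 0.18 for the complement mean.

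**Figure D1:**
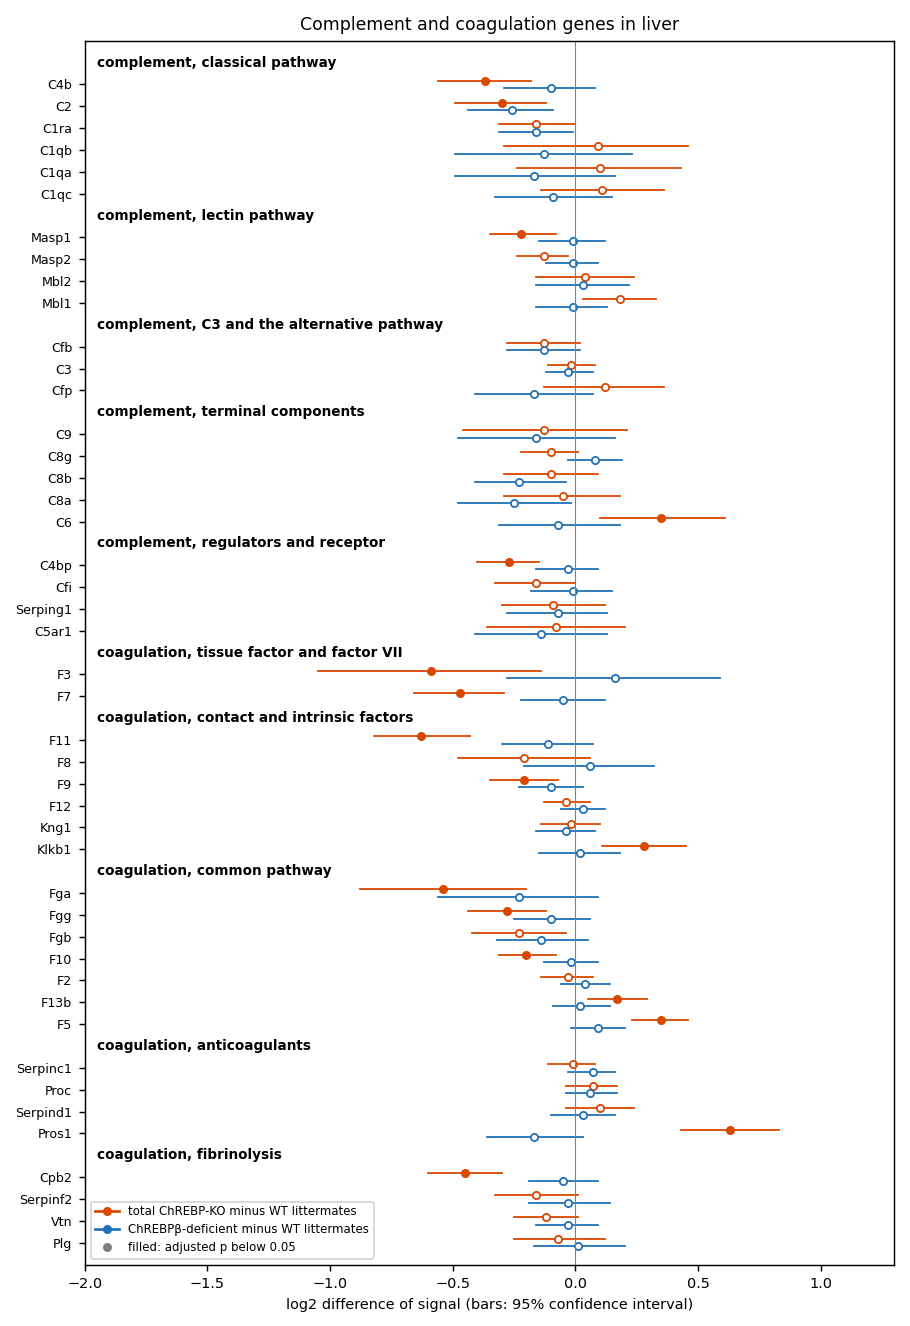
Log2 difference of signal for the 45 measured genes, grouped by role, in total ChREBP-KO mice (orange, 7 against 8 WT) and in ChREBPβ-deficient mice (blue, 8 against 8 WT); bars are 95% confidence intervals and filled points were called by limma. Filled orange points lie on both sides of 0 among coagulation genes, from -0.63 for F11 to 0.63 for Pros1, and no blue point is filled.

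Pros1, F5, F11, F7 and Cpb2 are the 5 members for which the change in total ChREBP-KO mice also differed from that in ChREBPβ-deficient mice, so their promoters are shown before their values. Each sequence is the RefSeq promoter on build GRCm38.p6, 250 bases before to 50 bases after the start of the gene, read 5′ to 3′ on the gene's strand. Capitals mark matches, on either strand, to an E-box (CACGTG), an HNF1 site (GTTAAT), a C/EBP site (TTGCNNNAA), a STAT site (TTCNNNGAA), a FOXA site (TGTTTAC) or a GC box (GGGCGG).
Pros1, chr16:62854057-62854356, plus strand: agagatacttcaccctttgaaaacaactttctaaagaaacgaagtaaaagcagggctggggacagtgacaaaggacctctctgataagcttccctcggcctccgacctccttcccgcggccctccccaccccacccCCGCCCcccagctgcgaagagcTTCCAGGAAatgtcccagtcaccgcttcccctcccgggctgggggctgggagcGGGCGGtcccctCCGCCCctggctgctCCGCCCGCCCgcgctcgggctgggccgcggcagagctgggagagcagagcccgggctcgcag
F5, chr1:164151585-164151884, plus strand: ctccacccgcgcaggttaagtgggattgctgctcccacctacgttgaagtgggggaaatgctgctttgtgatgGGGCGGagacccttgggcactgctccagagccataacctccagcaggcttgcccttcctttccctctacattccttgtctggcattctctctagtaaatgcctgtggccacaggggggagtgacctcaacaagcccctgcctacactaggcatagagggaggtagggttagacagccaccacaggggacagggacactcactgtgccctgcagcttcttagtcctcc
F11, chr8:45261982-45262281, minus strand: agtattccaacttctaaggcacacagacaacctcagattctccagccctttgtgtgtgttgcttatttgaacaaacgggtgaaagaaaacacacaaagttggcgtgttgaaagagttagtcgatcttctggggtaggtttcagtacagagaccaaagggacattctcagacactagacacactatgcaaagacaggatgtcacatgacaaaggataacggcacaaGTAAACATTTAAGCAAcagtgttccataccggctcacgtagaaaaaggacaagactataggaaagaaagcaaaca
F7, chr8:13025784-13026083, plus strand: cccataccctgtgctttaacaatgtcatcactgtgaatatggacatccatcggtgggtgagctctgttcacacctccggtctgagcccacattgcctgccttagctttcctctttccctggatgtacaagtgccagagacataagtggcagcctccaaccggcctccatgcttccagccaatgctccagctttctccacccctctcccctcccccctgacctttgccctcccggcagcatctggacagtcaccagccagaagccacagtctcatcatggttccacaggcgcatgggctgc
Cpb2, chr14:75242037-75242336, plus strand: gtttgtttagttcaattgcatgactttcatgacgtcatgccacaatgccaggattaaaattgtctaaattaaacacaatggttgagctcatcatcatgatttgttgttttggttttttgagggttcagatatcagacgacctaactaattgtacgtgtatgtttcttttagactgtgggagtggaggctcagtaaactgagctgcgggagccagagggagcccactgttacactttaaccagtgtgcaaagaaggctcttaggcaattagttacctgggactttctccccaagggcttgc
The Pros1 promoter, 66.7% G and C, held 5 GC boxes, a pair of which overlap, and 1 STAT site. The F5 promoter held 1 GC box. In F11, 42.3% G and C, a FOXA and a C/EBP match adjoined without sharing a base. Neither F7 nor Cpb2 held any of the 6 motifs in this window. No E-box stood in any of the 35 member promoters that the table lists, against 7.15% of all 32851 promoters. The HNF1 site stood in 10 of the 35 (28.6%, against 7.1% of all), the STAT site in 8 (22.9%, against 8.3%), the C/EBP site in 6 (17.1%, against 9.56%), the FOXA site in 2 (5.71%, against 3.65%) and the GC box in 5 (14.3%, against 35.7%). Such matches of letters are a description and were not tested as binding sites.

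Factor VII, the protease that tissue factor activates to start clotting, was lower in total ChREBP-KO livers. F7 read 10.82 to 11.34 with a median of 11.23 in the knockouts and 11.32 to 12.03 with a median of 11.60 in WT littermates. The groups met only at their edges. The difference was -0.47 ± 0.09 (SE, 7 against 8 mice; limma adjusted p 0.000118), a 1.39-fold lower signal. Within scan day 1 it was -0.62 (adjusted p 0.0074) and within day 2 -0.31 (adjusted p 0.0639). F3, which encodes tissue factor itself, read 7.09 to 8.11 (median 7.62) in the knockouts and 7.88 to 8.72 (median 8.31) in WT littermates. Its difference of -0.59 ± 0.22 only just passed (limma adjusted p 0.0431), and it was -0.51 with an adjusted p of 0.0534 under normexp background correction. The F3 call was lost without any 1 of 9 mice (total ChREBP-KO replicates 2, 5, 7 and 8 and WT replicates 1, 3, 4, 6 and 7), with a highest adjusted p of 0.113, and it was lost without the 3 mice with pancreatic RNA (adjusted p 0.051).

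Among contact and intrinsic factors, F11 fell and Klkb1 rose. Factor XI feeds thrombin generation back into the cascade, and Klkb1 encodes plasma prekallikrein, which works beside factor XII. F11 lay between 12.37 and 13.03 (median 12.62) in total ChREBP-KO mice and between 12.95 and 13.43 (median 13.33) in WT littermates, a difference of -0.63 ± 0.09 (limma adjusted p 6.19e-06) or 1.54-fold, the lowest value of any member, and it was -0.65 and -0.56 within scan days 1 and 2. For Klkb1 the knockouts spanned 13.90 to 14.30 (median 14.07) and WT littermates 13.49 to 14.05 (median 13.85), a difference of 0.28 ± 0.08 (limma adjusted p 0.0101). The ranges overlapped for both genes. Klkb1 was at 0.43 (adjusted p 0.008) within scan day 1 and at 0.16 (adjusted p 0.289) within day 2, and the exact Mann-Whitney test gave an adjusted p of 0.0944. F9, the factor missing in hemophilia B, differed by -0.21 (limma adjusted p 0.0183), and by -0.15 (adjusted p 0.129) without the 3 mice with pancreatic RNA; without total ChREBP-KO replicate 1 the adjusted p was 0.0538. F12 (-0.04, interval -0.13 to 0.06) and Kng1 (-0.02, interval -0.14 to 0.10), the kininogen that carries prekallikrein, were not called. F8, the cofactor of factor IX, differed by -0.21 with an interval of -0.48 to 0.06.

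Within the common pathway, F5 rose and F10 and the fibrinogen genes Fga and Fgg were called lower, while Fgb was not called. Factor V is the cofactor with which factor X cuts prothrombin. F5 read 14.59 to 14.89 (median 14.80) in total ChREBP-KO mice and 14.23 to 14.58 (median 14.45) in WT littermates. Every knockout stood above every WT littermate, by a difference of 0.35 ± 0.06 (limma adjusted p 2.30e-05) or 1.27-fold. Within scan day 1 it was 0.27 (adjusted p 0.0533) and within day 2 0.45 (adjusted p 0.000727). F5 and Pros1 were the 2 of 45 members with such a separation upward, against 3.30% of all genes, and 0 members separated downward, against 4.45% of all genes. F10 differed by -0.20 ± 0.06 (limma adjusted p 0.00828; adjusted p 0.0502 without the 3 mice with pancreatic RNA), and by -0.10 (adjusted p 0.513) within scan day 2. F2, which encodes prothrombin, was not called and spanned 17.24 to 17.65 (median 17.43) in the knockouts and 17.35 to 17.67 (median 17.46) in WT littermates, a difference of -0.03 with an interval of -0.14 to 0.07. F13b, the carrier subunit of the factor that cross-links fibrin, lay at 12.51 to 12.81 (median 12.58) against 12.32 to 12.61 (median 12.49), a difference of 0.17 ± 0.06 (limma adjusted p 0.0339). That call was lost without any 1 of 6 mice (total ChREBP-KO replicates 4, 6 and 8 and WT replicates 1, 2 and 4), with a highest adjusted p of 0.0878, and it was 0.13 (adjusted p 0.179) when arrays were scaled to their 75th percentile.

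Fibrinogen is a hexamer of paired chains encoded by Fga, Fgb and Fgg, neighbours on chromosome 3. Fga read 14.38 to 14.71 (median 14.59) in total ChREBP-KO mice and 14.50 to 15.70 (median 15.17) in WT littermates. Fgg read 17.72 to 17.99 (median 17.82) against 17.92 to 18.38 (median 18.11). Fgb read 17.94 to 18.25 (median 18.05) against 18.07 to 18.71 (median 18.21). The knockouts overlapped the lower end of a wider WT range for all 3 chains. The differences were -0.54 ± 0.17 for Fga (limma adjusted p 0.0139) and -0.28 ± 0.08 for Fgg (limma adjusted p 0.00667), and Fgb, at -0.23 with an interval of -0.42 to -0.04, was not called (limma adjusted p 0.0685). A second Fga probe gave -0.79 (limma adjusted p 0.0131). The exact Mann-Whitney test gave an adjusted p of 0.0944 for Fga, 0.0101 for Fgg and 0.0300 for Fgb. Without the 3 mice with pancreatic RNA, Fga was at -0.48 (adjusted p 0.057) and Fgg at -0.25 (adjusted p 0.042). Fibrinogen genes are part of the acute phase response, and of 15 listed acute phase genes outside the members 10 were called lower and 1 higher, among them Saa1 at -2.43 (limma adjusted p 0.00358) and Fgl1 at -1.59 (limma adjusted p 0.000303). The part of that response in the fibrinogen result was not tested.

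Of the anticoagulants, only Pros1 was called. Protein S, its product, is the cofactor of activated protein C and depends on vitamin K. Pros1 spanned 13.33 to 13.61 (median 13.45) in total ChREBP-KO mice and 12.55 to 13.32 (median 12.80) in WT littermates. The lowest knockout stood just above the highest WT mouse, replicate 2 at 13.32, and the rest of the WT group ended at 12.91. The difference was 0.63 ± 0.10 (limma adjusted p 1.32e-05), 1.55-fold, and it was 0.70 (adjusted p 5.33e-07) without that WT mouse and 0.61 and 0.66 within scan days 1 and 2. A second probe of the same transcript gave 0.66 ± 0.12 (limma adjusted p 0.000105). Antithrombin (Serpinc1, -0.01, interval -0.11 to 0.08), heparin cofactor II (Serpind1, 0.10, interval -0.04 to 0.24) and protein C (Proc, 0.07, interval -0.04 to 0.17) were not called.

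In fibrinolysis, Cpb2 was lower. It encodes the carboxypeptidase, also called TAFI, that trims fibrin and slows its breakdown by plasmin. Cpb2 read 14.76 to 15.11 (median 14.87) in total ChREBP-KO mice and 15.09 to 15.63 (median 15.37) in WT littermates. The top of the knockout range only just reached the bottom of the WT range. The difference was -0.45 ± 0.07 (limma adjusted p 1.61e-05) or 1.36-fold, and -0.54 and -0.32 within scan days 1 and 2. Plasminogen (Plg, -0.07), its inhibitor α2-antiplasmin (Serpinf2, -0.16) and vitronectin (Vtn, -0.12) were not called. Of the 6 members that need vitamin K-dependent carboxylation (F2, F7, F9, F10, Proc and Pros1), 1 was called higher and 3 lower, against 14.4% and 14.8% of all genes, with a median of -0.12, and the calls of F9 and F10 were among those lost without the mice with pancreatic RNA. Outside the members, Ggcx, the carboxylase itself, read 11.60 to 11.90 in the knockouts and 12.12 to 12.27 in WT littermates, a difference of -0.41 ± 0.05 (limma adjusted p 1.38e-07).

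**Figure D2:**
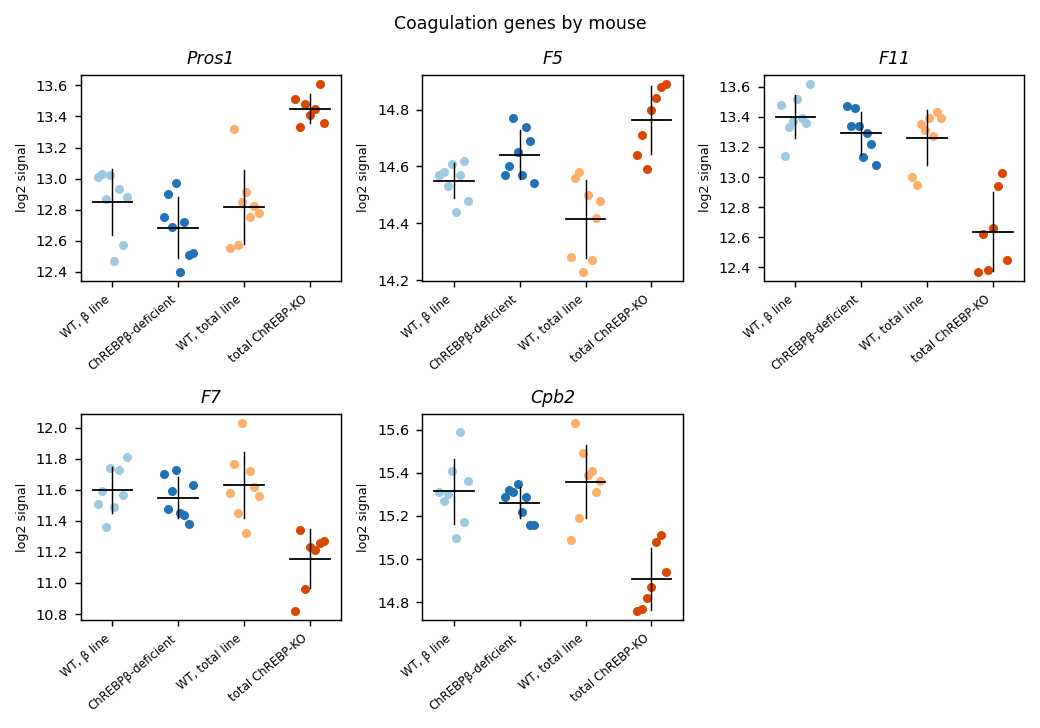
Log2 signal of Pros1, F5, F11, F7 and Cpb2 in each mouse of the 4 groups; points are mice, horizontal lines group means and vertical lines 1 SD. Total ChREBP-KO mice stand above all their WT littermates for Pros1 and F5 and at the bottom of the plot for F11, F7 and Cpb2, while ChREBPβ-deficient mice overlap theirs for every gene.

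On the complement side, C4b and C2, which together form the C3 convertase of the classical and lectin pathways, were lower in total ChREBP-KO livers. C4b read 15.84 to 16.20 (median 16.11) in the knockouts and 16.13 to 16.79 (median 16.44) in WT littermates, a difference of -0.37 ± 0.09 (limma adjusted p 0.00306) or 1.29-fold. Within scan day 2 the C4b difference was -0.30 and was not called (limma adjusted p 0.145). For C2 the knockouts lay between 13.23 and 13.76 (median 13.41) and WT littermates between 13.51 and 13.90 (median 13.79), a difference of -0.30 ± 0.09 (limma adjusted p 0.0113; adjusted p 0.0662 without the 3 mice with pancreatic RNA). Both genes had overlapping groups. C4b is nearly identical to C4a, and cross-hybridization could mix them; the probe named C4a also read lower, by -0.50 (limma adjusted p 0.00266). A second C4b probe gave -0.45 (limma adjusted p 0.00196). The initiating C1q chains were not called, with C1qa at 0.10 (interval -0.24 to 0.43), C1qb at 0.09 (interval -0.29 to 0.46) and C1qc at 0.11 (interval -0.14 to 0.36). These values average opposed differences on the 2 scan days, 0.49, 0.52 and 0.30 on day 1 and -0.31, -0.34 and -0.08 on day 2, none of them called. The scanner software found the C1qa spot on only 3 to 6 arrays of each group. C1ra, whose near copy C1rb it cannot be fully parted from, was at -0.16 and not called (limma adjusted p 0.135).

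Of the lectin pathway, Masp1 was lower on its brightest probe. The MASP proteases ride on mannose-binding lectin and cut C4 and C2. Masp1 read 12.78 to 13.07 (median 12.79) in total ChREBP-KO mice and 12.87 to 13.27 (median 13.09) in WT littermates, a difference of -0.22 ± 0.07 (limma adjusted p 0.0133). Within scan day 1 it was -0.12 (adjusted p 0.477) and within day 2 -0.32 (adjusted p 0.0183). It was no longer called with slide in the model as a block (adjusted p 0.113) or by the exact Mann-Whitney test (adjusted p 0.0558). The other 4 Masp1 probes differed by -0.04 to 0.10 and none was called. The lectins Mbl1 (0.18, limma adjusted p 0.0682) and Mbl2 (0.04, limma adjusted p 0.814) did not pass.

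C3, the hub of the cascade, spanned 18.40 to 18.52 (median 18.46) in total ChREBP-KO mice and 18.31 to 18.59 (median 18.50) in WT littermates. The groups overlapped fully, and the difference was -0.02 with an interval of -0.11 to 0.08. It was -0.04 when each array was scaled to its 75th percentile, which does not tie the brightest spots to a shared ranking. Factor B (Cfb, -0.13) and properdin (Cfp, 0.12), which stabilizes the alternative convertase, were not called. In the terminal complex C6 alone was called, and upward: it read 12.31 to 12.88 (median 12.64) against 11.91 to 12.77 (median 12.30), a difference of 0.35 ± 0.12 (limma adjusted p 0.0315). C6 lost that call without any 1 of 6 mice (total ChREBP-KO replicates 1, 5 and 8 and WT replicates 1, 2 and 5), with a highest adjusted p of 0.0752, and without the 3 mice with pancreatic RNA (0.31, adjusted p 0.119). C8a (-0.05), C8b (-0.10), C8g (-0.10) and C9 (-0.13) were not called.

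Among regulators, C4bp, which binds C4b and stops the convertase, was lower. It read 15.34 to 15.81 (median 15.46) in total ChREBP-KO mice and 15.66 to 15.90 (median 15.84) in WT littermates, a difference of -0.27 ± 0.06 (limma adjusted p 0.00122). It was -0.15 (adjusted p 0.289) within scan day 2. The groups overlapped through the lowest WT mouse, which stood apart from the other 7. Factor I (Cfi, -0.16), C1 inhibitor (Serping1, -0.09) and the C5a receptor (C5ar1, -0.08) were not called, and C5ar1, at 4.67 to 5.90 over all mice, was close to the local background.

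**Figure D3:**
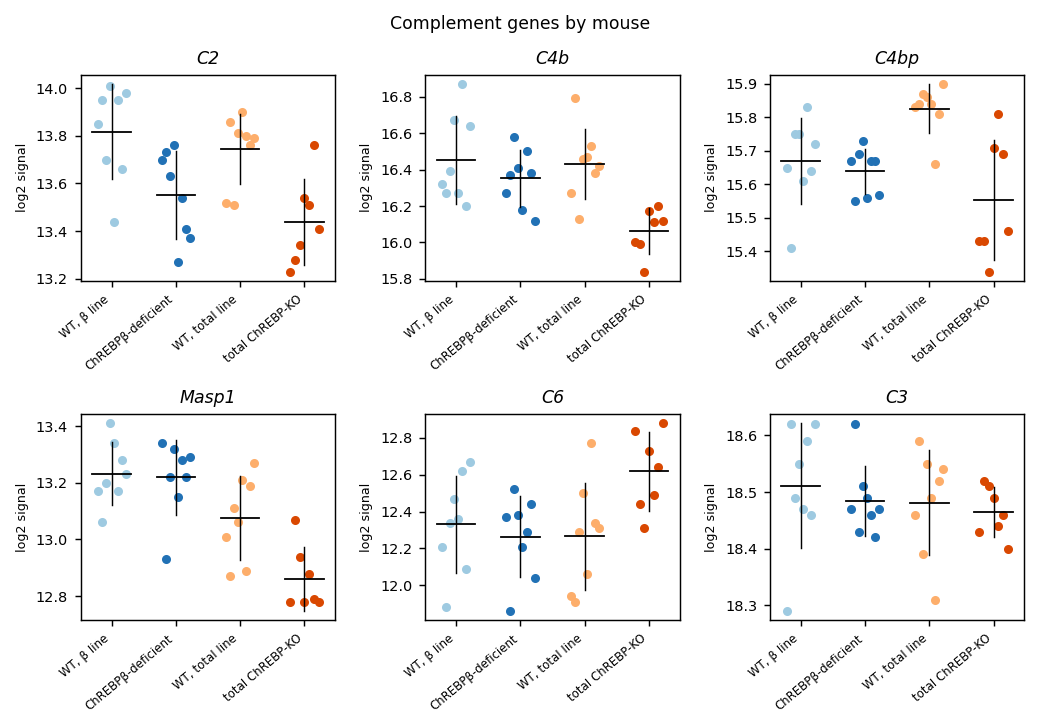
Log2 signal of C2, C4b, C4bp, Masp1, C6 and C3 in each mouse of the 4 groups; points are mice, horizontal lines group means and vertical lines 1 SD. The total ChREBP-KO group sits lower for C2, C4b, C4bp and Masp1 and higher for C6, with some overlap in each panel, and the 4 groups overlap for C3.

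Several members have more than 1 probe. For Masp2, Serpinc1 and Pros1, as for Masp1 above, some probes were called and others not. Both C4bp probes were called lower, with unequal differences. The first 30 bases of the 60-base probes, as the array lists them, identify each one (positions on mm9 are those of the whole probe).
Masp2, brightest probe, chr4:147978456-147978515, plus strand: aggctggaatgactgccagctacagcaccc
Masp2, called probe, chr4:147989121-147989180, plus strand: taccctttacaagggcaatttagcaaatca
C4bp, brightest probe, chr1:132532724-132532783, minus strand: accgggagttatgactgtatgttctcttaa
C4bp, second probe, chr1:132554451-132554510, minus strand: cttctattcataacatccagaaattggaaa
Serpinc1, brightest probe, chr1:162932565-162932624, plus strand: gggagagtggctaatccttgtgtgaactaa
Serpinc1, second probe, chr1:162934272-162934331, plus strand: aacaataatctaccccattcccacccagga
Pros1, brightest probe, chr16:62929001-62929060, plus strand: atatttgatgatagtgcattgcaagtggct
Pros1, uncalled probe, chr16:62898651-62898710, plus strand: tagttcagatcaagcctgctgtgatgcgat
The array assigns the called Masp2 probe to another RefSeq transcript than the brightest one, and the second probes of C4bp and Serpinc1 and the uncalled probe of Pros1 to Ensembl transcripts; exons were not assigned here. The brightest Masp2 probe differed by -0.13 (limma adjusted p 0.0558), while the called one read 10.48 to 10.93 in total ChREBP-KO mice and 10.89 to 11.23 in WT littermates, a difference of -0.41 ± 0.07 (limma adjusted p 2.04e-05). The second C4bp probe read 6.70 to 8.27 against 8.03 to 9.02, a difference of -1.02 ± 0.17 (limma adjusted p 2.67e-05) beside -0.27 for the brightest. The second Serpinc1 probe read 6.76 to 7.12 against 7.12 to 7.46, a difference of -0.39 ± 0.06 (limma adjusted p 2.69e-05), where the brightest was at -0.01. The uncalled Pros1 probe, near the local background at 4.99 to 5.49 against 5.04 to 5.48, was at 0.04 beside 0.63. A difference between the probes of 1 gene was not tested.

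**Figure D4:**
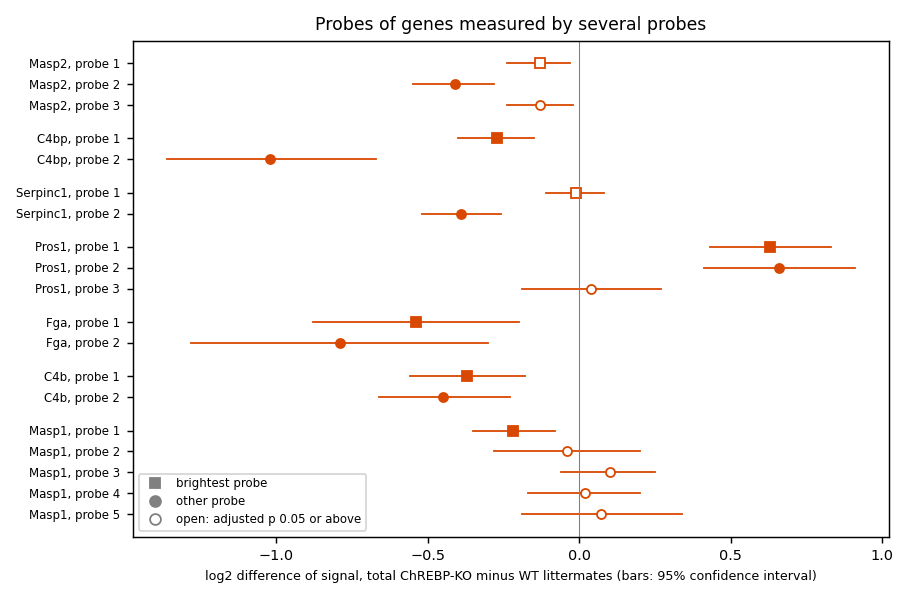
Log2 difference between total ChREBP-KO mice and WT littermates for every probe of 7 genes; squares are the brightest probe, circles the others, bars 95% confidence intervals, and open symbols were not called. The second probes of C4bp (-1.02) and Serpinc1 (-0.39) and 1 Masp2 probe (-0.41) lie away from the brightest probe of the same gene.

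In ChREBPβ-deficient mice 0 of 45 members were called by limma, where 0.00417% of all genes were. At an unadjusted p under 0.05, limma passed 4 members, against 5.06% of all genes, and the exact Mann-Whitney test passed 2, with 0 after adjustment. The 4 were complement genes and all read lower: C2 (-0.26, unadjusted p 0.00505), C8b (-0.23, unadjusted p 0.0178), C8a (-0.25, unadjusted p 0.0336) and C1ra (-0.16, unadjusted p 0.0415), each with a limma adjusted p of 0.909 or more. The complement differences were negative for 20 of 22 genes, with a median of -0.09, and the coagulation differences for 12 of 23, with a median of -0.02, where 12419 of all 23968 genes were negative and the median was -0.00. In the same comparison all 15 acute phase genes (median -0.28), all 13 Kupffer cell and macrophage markers (median -0.14) and all 7 neutrophil markers (median -0.08) were negative; limma called 0 of them, and 5, 1 and 0 had an unadjusted p under 0.05. Their part in the complement values was not tested. No member separated the 2 groups, against 0.0334% of all genes. Pros1 read 12.40 to 12.97 (median 12.70) in ChREBPβ-deficient mice and 12.47 to 13.03 (median 12.91) in their WT littermates, and F5 read 14.54 to 14.77 (median 14.62) against 14.44 to 14.62 (median 14.57). F11 read 13.08 to 13.47 (median 13.31) against 13.14 to 13.62 (median 13.38), F7 11.38 to 11.73 (median 11.54) against 11.36 to 11.81 (median 11.58) and Cpb2 15.16 to 15.35 (median 15.29) against 15.10 to 15.59 (median 15.31). The groups overlapped for each of these 5 genes. The intervals of the differences were -0.36 to 0.03 for Pros1, -0.02 to 0.20 for F5, -0.30 to 0.07 for F11, -0.22 to 0.12 for F7 and -0.19 to 0.09 for Cpb2.

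Whether the 2 deficiencies changed a gene by unequal amounts was tested directly as an interaction, total ChREBP-KO less ChREBPβ-deficient. It was called for 5 members, all in coagulation, against 7.09% of all genes in the positive and 8.25% in the negative direction. Pros1 (0.80 ± 0.14, limma adjusted p 0.000133) and F5 (0.26 ± 0.08, limma adjusted p 0.0250) were positive. F11 (-0.52 ± 0.13, limma adjusted p 0.00648), F7 (-0.42 ± 0.12, limma adjusted p 0.0167) and Cpb2 (-0.40 ± 0.10, limma adjusted p 0.00610) were negative. Of the 22 complement genes 0 were called by limma and 5 had an unadjusted p under 0.05, against 27.9% of all genes, with C4bp nearest to the threshold (-0.24, limma adjusted p 0.0611). Within the arrays scanned on day 1 the interaction was 0.60 for Pros1, 0.14 for F5, -0.69 for F11, -0.68 for F7 and -0.60 for Cpb2, and on day 2 it was 0.93, 0.39, -0.34, -0.17 and -0.18, so F11 and Cpb2 were called on day 1, Pros1 and F5 on day 2, and F7 on neither. With the slide as a fixed block the F11 value was -0.49 (adjusted p 0.0530) and the F7 value -0.44 (adjusted p 0.0535), neither of which was called.

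The WT littermates of the 2 lines differed at 3 members, all lower in the total ChREBP-KO line, where 7.79% of all genes were called higher and 9.36% lower. C8g, a small terminal component of the lipocalin family, read 16.20 to 16.42 in WT mice of the total ChREBP-KO line and 16.43 to 16.72 in those of the ChREBPβ line, with no overlap, a difference of -0.25 ± 0.05 (limma adjusted p 0.00174). Klkb1 read 13.49 to 14.05 against 13.98 to 14.25 (difference -0.32 ± 0.08, limma adjusted p 0.00663) and Proc 15.46 to 15.79 against 15.74 to 15.87 (difference -0.19 ± 0.05, limma adjusted p 0.0104). On scan day 1 the differences were -0.32 for C8g, -0.53 for Klkb1 and -0.29 for Proc, all called, and on day 2 they were -0.17, -0.10 and -0.08, none called. Total ChREBP-KO mice, at 13.90 to 14.30, covered the range of the WT mice of the ChREBPβ line.

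Other genes of both pathways, from a list of 31 complement and 33 coagulation genes of which 28 and 29 were measured, were read beside the members. In total ChREBP-KO livers 5 of the complement genes were called higher and 4 lower (32.1%, median 0.02), and 2 of the coagulation genes higher and 2 lower (13.8%, median -0.01), against 29.3% of all genes. Among the higher were the complement inhibitor Susd4 (1.14 ± 0.23, limma adjusted p 0.000271), the terminal component C7 (0.58, limma adjusted p 7.54e-07), the collectin Colec11 (0.50, limma adjusted p 0.0161), Vwf (0.38, limma adjusted p 0.0147) and its protease Adamts13 (0.33, limma adjusted p 0.0218). Lower beside C4a and Ggcx were Hc, which encodes C5 (-0.43, limma adjusted p 0.00869), C1rl (-0.40, limma adjusted p 0.000504), the membrane regulator Cd46 (-0.20, limma adjusted p 0.0253, at a signal of 4.67 to 5.26 near the local background) and Lman1, the cargo receptor that takes factors V and VIII out of the endoplasmic reticulum (-0.33, limma adjusted p 3.36e-05). Lman1 was lower while F5 mRNA was higher. Of 11 stellate cell and fibroblast markers 4 were called higher, Colec11 among them, and the mean over the 11 ran from -0.05 to 1.26 in total ChREBP-KO mice and from -0.30 to 0.18 in WT littermates; its part in the Colec11 value was not tested. Of 13 Kupffer cell and macrophage markers, 12 liver endothelial, 7 neutrophil and 6 platelet markers, 0 were called by limma.

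Mice of 1 group also varied among themselves, and some members varied with markers of a cell type or with acute phase genes. Each of the 45 members was set against the mean of 5 gene lists over the 31 arrays, after taking out group means, which gave 225 relations with p-values from 100000 permutations of mice within groups and Benjamini-Hochberg adjustment over the 225. The C1q chains and properdin followed the Kupffer cell and macrophage markers, with Pearson's r of 0.93 for C1qa (Spearman's rho 0.93), 0.88 for C1qb (rho 0.86), 0.92 for C1qc (rho 0.91) and 0.85 for Cfp (rho 0.86). The permutation p was 1e-05 for each of these values of r and rho, the smallest that 100000 draws can give, and the adjusted p was 0.00025 for r and 0.00045 for rho. They were the 4 members so called for that list, and 0.129% of all genes, the list's own among them, had an r at or above the lowest of the 4. F8 followed the liver endothelial markers (r 0.83, permutation p 1e-05, adjusted p 0.00025; rho 0.61, permutation p 0.00088, adjusted p 0.009), and 0.0376% of all genes had an r at or above this one. For the same list 9 members were called negative, C4b lowest (r -0.64, adjusted permutation p 0.00315), where 0.818% of all genes were at or below the weakest of the 9. With hepatocyte markers 5 members were called positive, against 2.99% of all genes at or above the weakest, and with stellate cell and fibroblast markers 1, against 3.58%.

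With the acute phase genes 19 members were called positive and 0 negative, and the median r over the 45 was 0.40. Over all genes the median r was -0.02, and 2.64% had an r at or above 0.49, the weakest of the 19. The fibrinogen chains were highest, with r of 0.87 for Fga (rho 0.76), 0.85 for Fgb (rho 0.81) and 0.85 for Fgg (rho 0.77), an adjusted permutation p of 0.00025 for each r and of 0.002, 0.00045 and 0.00161 for rho. Cpb2 (r 0.78, adjusted permutation p 0.00025), C4b (r 0.73, adjusted permutation p 0.000937) and Pros1 (r 0.67, adjusted permutation p 0.00315) came with them, whereas F11 (r 0.07, adjusted permutation p 0.824) and F5 (r 0.06, adjusted permutation p 0.852) did not pass. Pros1 varied in the same direction as the acute phase genes within groups. For Pros1, WT replicate 2 of the total ChREBP-KO line stood apart, at 13.32 against 12.55 to 12.91 in the rest of its group. The r of Pros1 without that mouse is not given here. In total ChREBP-KO mice Pros1 was higher and 10 of the 15 acute phase genes were called lower. The part of the acute phase response in the Pros1 values was not tested. Leaving out the 2 mice farthest from the median of a list gave r of 0.91, 0.87 and 0.90 for C1qa, C1qb and C1qc, 0.87 for Cfp, 0.77 for F8, and 0.84, 0.80 and 0.80 for Fga, Fgb and Fgg. By scan day r was 0.90 and 0.95 for C1qa, 0.91 and 0.77 for F8, and 0.87 and 0.88 for Fga. The arrays of a pair of values share hybridization and normalization, whose part was not tested.

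**Figure D5:**
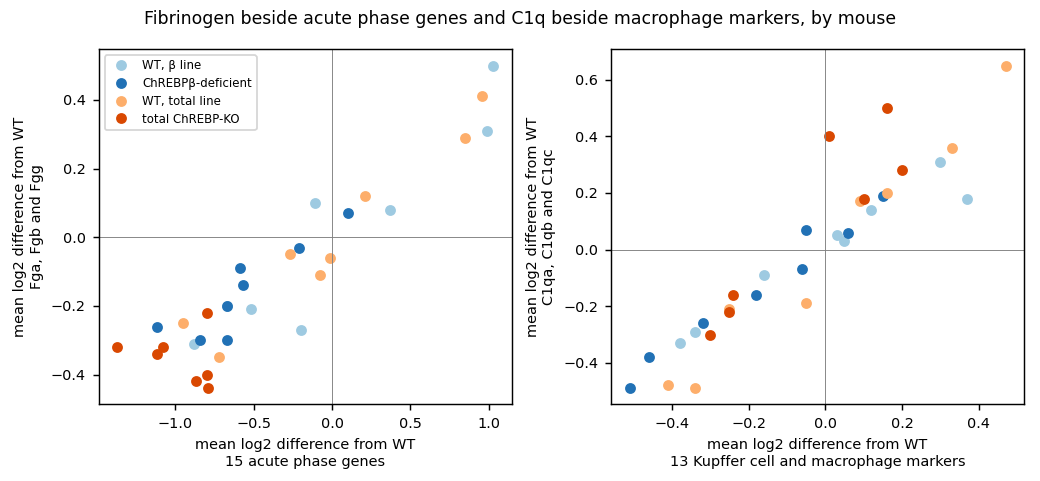
Each point is 1 of the 31 mice, as the mean log2 difference from the WT littermates of its line: the 3 fibrinogen chains against 15 acute phase genes (left) and the 3 C1q chains against 13 Kupffer cell and macrophage markers (right). Total ChREBP-KO mice lie at -0.44 to -0.22 for fibrinogen (median -0.34) and overlap the lower part of their WT littermates' range, -0.35 to 0.41. The 4 groups overlap on the right.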

How the data were processed

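Liver RNA from 31 mice was hybridized to 1-colour Agilent arrays, and the authors deposited the Feature Extraction 10.10.1.1 scanner files with the spots' Cy3 intensity, beside a table of normalized log2 values by the authors, used only as an alternative. Following the study's methods, a spot had to be found, significant and clearly over background, on 26 or more of the arrays or on 6 or more of 1 group. Background was not subtracted. The median intensity was log2 transformed, quantile normalized and summarised per probe, and limma 3.58.1 (R 4.3.3) fitted the 4 groups together over 36059 probes, with Benjamini-Hochberg adjustment at 0.05. A gene was read from its brightest probe. Local background medians were 15 to 33, and 34131 to 38612 spots passed per array. Each array is a separate mouse, and the 7 or 8 mice per group limit the precision. The test was checked on simulated data.

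The members and all gene lists were chosen with earlier results of these data known. Values by mouse are given for up to 6 called genes in each direction of complement and coagulation, genes called in another comparison, C3, F2, the fibrinogen chains and genes whose probes disagreed, and for other pathway genes up to 4 called in each direction. Alternatives changed the scaling, background, filter, source of values, slide, scan date, replicate number, test, probe rule, threshold and samples. Some of the other complement genes called are not named here.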

Additional observations from a re-analysis of the deposited data

Results flagged for a closer look

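In 12 of 180 groups (45 genes in 4 groups) 1 mouse stood apart from the rest by Dixon's test at the 95% level, which chance alone gives in about 1 of 20 groups. Replicate 2 of the WT mice of the total ChREBP-KO line, the mouse with the most pancreatic RNA, was apart for 4 genes and high in each. It read 13.32 for Pros1 (others 12.55 to 12.91), 17.67 for F2 (others 17.35 to 17.49), 13.42 for F9 (others 12.96 to 13.17) and 18.12 for Kng1 (others 17.57 to 17.78). The part of the pancreatic RNA in these values was not tested.

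Replicate 2 of the ChREBPβ-deficient mice was apart for 3 genes, at 17.65 for F2 (others 17.40 to 17.51), 18.62 for C3 (others 18.42 to 18.51) and 12.93 for Masp1 (others 13.15 to 13.34). In total ChREBP-KO mice, replicate 7 read 18.25 for Fgb (others 17.94 to 18.06) and 18.00 for Kng1 (others 17.64 to 17.77). Replicate 1 of the same group read 14.38 for Fga (others 14.59 to 14.71) and 12.74 for F9 (others 12.93 to 13.06). Replicate 6 of their WT littermates read 15.66 for C4bp (others 15.81 to 15.90).

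For 5 coagulation genes the change in total ChREBP-KO mice differed from that in ChREBPβ-deficient mice by limma's interaction test. The values were 0.80 for Pros1 (adjusted p 0.000133), 0.26 for F5 (adjusted p 0.0250), -0.52 for F11 (adjusted p 0.00648), -0.40 for Cpb2 (adjusted p 0.00610) and -0.42 for F7 (adjusted p 0.0167). These 5 are 11.1% of the 45 members, against 15.3% of all genes called. Within single scan days F11 and Cpb2 were called on day 1, Pros1 and F5 on day 2, and F7 on neither.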

How the results depend on the processing

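No named value changed direction while called, and 0 members were called in ChREBPβ-deficient mice by limma under every alternative run. In total ChREBP-KO mice the 1 complement gene called higher became 0 with scaling to the 75th percentile, on scan day 1, on scan day 2, with the exact Mann-Whitney test and without the mice with pancreatic RNA. The 4 complement genes called lower became 2 on scan day 1, 1 on scan day 2 and 1 with a minimum fold change added to the threshold. The 4 coagulation genes called higher became 2 on each scan day, with the Mann-Whitney test and with that minimum. The 8 called lower became 5 on scan day 1, 2 on scan day 2, 5 with that minimum and 4 without the mice with pancreatic RNA. Scaling to the 75th percentile added lower calls for Fgb (limma adjusted p 0.0471), Serpinf2 (0.0321), Masp2 (0.0326) and Cfi (0.0387). Under that scaling the calls of C6 (limma adjusted p 0.0553) and F13b (0.179) were lost. The 5 interaction calls became 2 on each scan day and 8 when any probe of a gene counted, and the 3 calls between WT littermates became 0 on scan day 2, 6 with any probe and 0 with that minimum. A single scan day holds 3 to 5 mice per group. The share of all genes called under each setting is not given here, so these counts are not read as particular to the members. Leaving out 1 mouse at a time gave 0 to 2 complement genes higher, 4 to 5 lower, 3 to 4 coagulation genes higher, 7 to 9 lower, 5 to 7 interaction calls and 3 to 6 calls between WT littermates. The setting without pancreatic RNA was chosen after seeing the data. Replicate numbers were not used as pairs in the main model. Mice of 1 number correlated at -0.16 to 0.53 in the ChREBPβ line and -0.21 to 0.24 in the total line. Of these pairs, 4 of 8 and 1 of 7 were best with their own number. Whether the numbers pair mice of the ChREBPβ line was not tested. With the replicate block, complement genes called higher were 2, and no other count moved by over 1.5 times. C5ar1 and the uncalled Pros1 probe were read near the local background. The cause of these changes was not tested.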

Other observations

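Members also varied with hepatocyte markers within groups, over the 31 mice and within the same 225 relations. Serpind1, which encodes heparin cofactor II, had the highest r (0.74, adjusted permutation p 0.000937; rho 0.76, adjusted permutation p 0.00169), with 0.70 after leaving out the 2 mice farthest from the median and 0.84 and 0.51 by scan day. F12 followed (r 0.66, adjusted permutation p 0.00291; rho 0.68, adjusted permutation p 0.0045), with 0.59 after leaving out 2 mice and 0.69 and 0.57 by scan day. Cfi (r 0.54), Vtn (r 0.55) and Klkb1 (r 0.53) were the other 3 called, with adjusted permutation p-values of 0.0397, 0.0361 and 0.0361. Cfi fell to an r of 0.22 and Vtn to 0.19 on scan day 2. With stellate cell and fibroblast markers 1 member, C1qa, was called by r (0.51, adjusted permutation p 0.015) and not by rho (0.46, adjusted permutation p 0.0688).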
